A study of Mus musculus with 12 samples.

Results

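Crym encodes mu-crystallin, a cytosolic protein that binds thyroid hormone, and it was followed here in injured mouse retina together with 5 genes of thyroid hormone signalling. Thra and Thrb encode the nuclear receptors of the hormone, Rxrg encodes a retinoid X receptor that pairs with them, and Dio2 and Dio3 encode the deiodinases that activate and inactivate the hormone. The rows of the 2 deposited tables with these 6 gene names were taken, 6 of 54367 genes, and each was found in both tables. The set was chosen by the day 3 values of Crym, whose rise in lasered retina was already known from these data, so these values are given as a description without a test.

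The retinas came from wild-type C57BL/6 mice aged 8 to 12 weeks. The 4 groups, each with 3 poly(A) RNA libraries, were retina of the lasered right eye on day 3, retina of the untreated left eye on day 3, and the same 2 kinds of eye on day 7. The laser group received photocoagulation burns (532 nm, 75 µm spots, 0.1 s), and the fellow eye of a lasered animal was the control, so that no retina came from an animal without a burn. The labels do not say whether equal replicate numbers are the 2 eyes of an animal, or how many animals a library holds. The p-values below therefore measure the spread between these samples.

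Thyroxine, the main circulating form of the hormone, enters cells through transporters such as that encoded by Slco1c1 and is converted by the Dio2 product to triiodothyronine, the form that the receptors bind with high affinity. The Dio3 product removes an iodine from both forms and ends their action, while mu-crystallin holds triiodothyronine in the cytosol in a manner that depends on NADPH. In the developing mouse retina a product of Thrb, together with Rxrg, sets the balance of the short-wave and middle-wave cone opsins. Mu-crystallin is also a ketimine reductase of the lysine degradation route through pipecolate, and in some marsupials it is an abundant lens protein.

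The start regions of the receptor gene Thrb and of the deiodinase genes are shown because Thrb has 2 start sites of different base composition and because the deiodinase genes, which act against each other, differ in the motifs near their starts. Promoter sequences (250 bases before to 50 after a start site) were found for 4 of the 6 genes, with 6 start sites in all, in RefSeq on build GRCm38.p6. No entry was found for Crym and Thra. Searched on both strands were AGGTCA, the hexamer that thyroid hormone receptors bind, the TATA box TATAAA, the cyclic AMP response element TGACGTCA and the GC box GGGCGG, and their matches are in capitals, a GC box on the other strand reading CCGCCC. The sequences lie, in the order shown, at chr14:17660710-17661009 and chr14:17981394-17981693 on the plus strand, chr12:90738989-90739288 on the minus strand and chr12:110278980-110279279 on the plus strand, and each is written 5′ to 3′ along its gene.
Thrb, start site 1: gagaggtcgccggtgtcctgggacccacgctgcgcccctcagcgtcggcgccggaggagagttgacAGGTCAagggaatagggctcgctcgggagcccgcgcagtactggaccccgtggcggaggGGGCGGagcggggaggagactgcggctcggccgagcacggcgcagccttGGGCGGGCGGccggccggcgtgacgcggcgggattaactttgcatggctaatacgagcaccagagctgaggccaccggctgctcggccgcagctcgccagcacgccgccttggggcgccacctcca
Thrb, start site 2: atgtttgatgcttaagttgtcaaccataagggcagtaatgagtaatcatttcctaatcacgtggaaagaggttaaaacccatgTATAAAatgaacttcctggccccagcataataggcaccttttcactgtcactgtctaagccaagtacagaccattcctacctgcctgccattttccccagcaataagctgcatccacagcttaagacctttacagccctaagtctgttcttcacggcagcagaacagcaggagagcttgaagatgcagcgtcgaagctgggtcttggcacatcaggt
Dio2: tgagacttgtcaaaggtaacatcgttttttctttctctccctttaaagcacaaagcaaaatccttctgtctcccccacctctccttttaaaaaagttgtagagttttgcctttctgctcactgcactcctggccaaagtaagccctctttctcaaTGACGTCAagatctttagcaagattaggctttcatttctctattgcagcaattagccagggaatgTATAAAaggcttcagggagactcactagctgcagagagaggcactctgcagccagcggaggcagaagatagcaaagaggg
Dio3: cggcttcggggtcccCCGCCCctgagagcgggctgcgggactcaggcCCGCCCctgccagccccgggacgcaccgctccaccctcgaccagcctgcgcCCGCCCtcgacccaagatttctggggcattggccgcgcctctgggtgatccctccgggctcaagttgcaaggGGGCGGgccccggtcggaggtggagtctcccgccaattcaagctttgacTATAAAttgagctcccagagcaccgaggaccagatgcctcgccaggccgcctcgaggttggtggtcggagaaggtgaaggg
The upstream start of Thrb held 1 AGGTCA and 3 GC boxes, of which a pair overlap, and the downstream start held TATAAA 167 bases before the start. Dio2 carried a TATA box 30 bases and a cyclic AMP response element 95 bases before its start, and Dio3 a TATA box 31 bases before it and 4 GC boxes. Of the 2 start sites of Rxrg, not shown, the downstream site held an AGGTCA 88 bases before the start and the other held none of these letters. Among 32851 mouse promoters of the same length, 16.3% held AGGTCA, 13.6% TATAAA, 1.79% TGACGTCA and 35.7% GGGCGG. A direct repeat of AGGTCA spaced by 4 bases, held by 0.0152% of them, was not among the 6 start regions. These matches describe the letters in the window and are not shown to be sites in use.

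The values analysed are the deposited signal per gene, a length-scaled expression value. From 8738221 to 11879979 reads per library could be recovered from it on day 3 and from 22683139 to 29487196 on day 7, over the genes whose coordinates match the annotation. The summed signal of 12 cone markers stood between 2717 and 8576 in all 12 libraries, so that all hold retina. Laser library 1 of day 3 stood apart in glial and photoreceptor genes, laser library 2 of day 3 and laser library 1 of day 7 in lens genes, and the libraries numbered 2 of day 7 in base composition, with values given beside the results below. Of 16786 genes tested on day 3, 0.149% passed an adjusted p of 0.05 (limma, Benjamini-Hochberg), and of 15592 genes on day 7, 0.244% passed. The median log2 fold change of all tested genes was 0.16 on day 3 and 0.06 on day 7. Rescaling the libraries by the median of ratios put the day 3 median at -0.02, so day 3 changes near 0.16 are no change relative to other genes.

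Crym (ENSMUSG00000030905, mm10 chromosome 7, 120186380 to 120202111, minus strand) had a signal of 824, 306 and 353 in lasered retinas on day 3, against 56.8, 65.3 and 50.2 in control retinas. The groups did not overlap, with laser above control as for 27.7% of all genes tested that day, and laser library 1 stood far above the other laser libraries. The means were 494 ± 287 in lasered and 57.4 ± 7.58 in control retinas (SD, n = 3 each), which is 8.6 times as high, and the log2 fold change was 2.94 (SE 0.36). Over the control mean, the laser libraries were 14.3, 5.33 and 6.14 times as high. Without laser library 1 the log2 fold change was 2.50, and without the lens-rich laser library 2 it was 3.22. Ranked by signal among all genes, Crym was at places 140, 387 and 339 in the lasered retinas, against 1666, 1461 and 1967 in the controls.

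On day 7 Crym was still raised, at a smaller multiple. Its signal was 232, 203 and 215 in lasered retinas, against 105, 83.4 and 82.1 in control retinas, and the groups again did not overlap, with laser above control as for 6.78% of all genes tested that day. The means were 216.7 ± 14.9 in lasered and 90.1 ± 12.7 in control retinas (SD, n = 3 each), a log2 fold change of 1.26 (SE 0.14, adjusted p = 0.0243 by limma over all genes tested), higher in 3 of 3 laser libraries. The laser library of each number was 2.22, 2.43 and 2.62 times its same-numbered control. The call is close to its threshold: it held without laser library 2 (adjusted p = 0.0269) and was lost when any of the other 5 libraries was left out, with an adjusted p of 0.117 without laser library 1, 0.188 without laser library 3, and 0.0767, 0.147 and 0.231 without control library 1, 2 and 3. It was also lost without a filter on low values (0.0731), after median-of-ratios rescaling (0.204) and in a joint fit of 12 libraries (0.265), while the log2 fold change stayed between 1.16 and 1.44 over all 15 alternatives.

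Crym stood high among all genes by log2 fold change on both days, and low among the called genes of day 7. On day 3, 66 tested genes had a larger log2 fold change, 6 of them among the 25 genes called. On day 7, 132 tested genes had a larger one, and 32 of the 38 genes called did. The day 7 laser effect minus the day 3 laser effect was -1.68 for Crym (SE 0.42), a description with no test because its day 3 value was the reason for choosing it, against a median of -0.11 over all 17611 genes in that comparison.

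**Figure D1:**
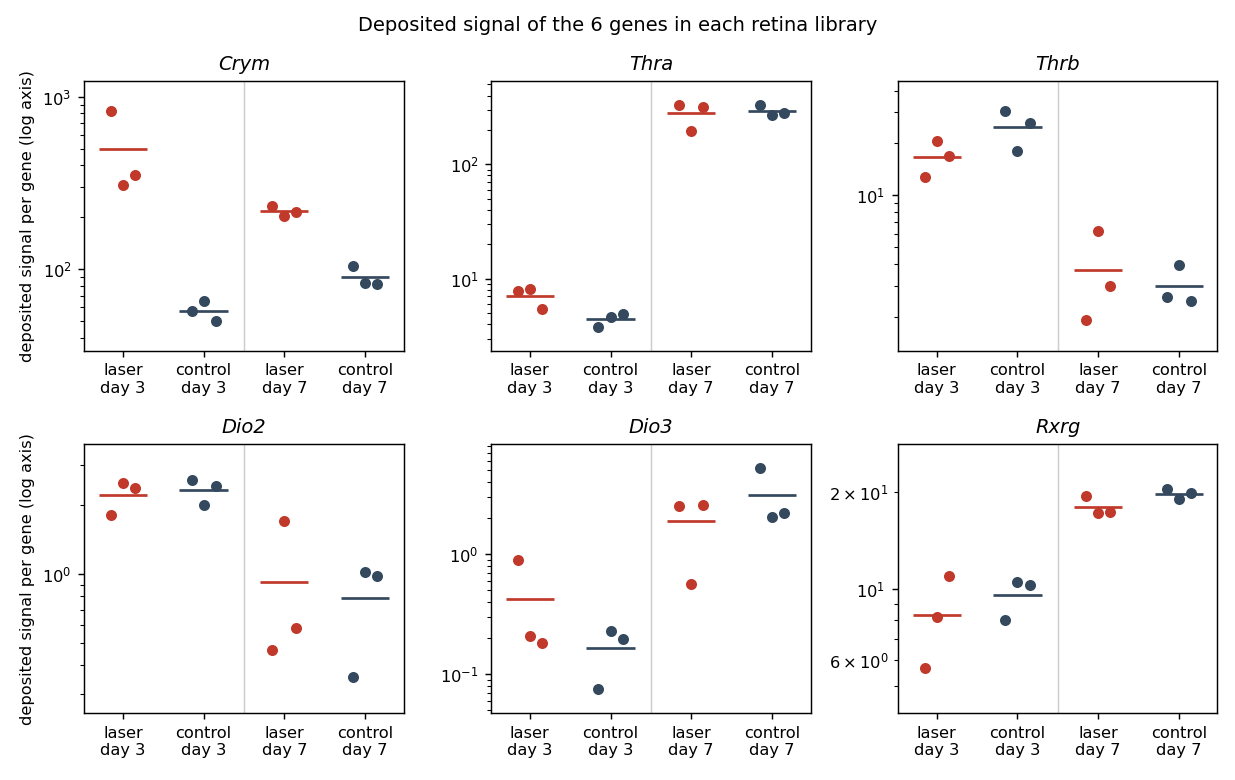
Deposited signal (log axis, a separate range per gene) of the 6 genes in each library, with laser and control groups of day 3 left of the grey line and of day 7 right of it. Points are libraries 1 to 3 from left to right and bars are group means. Crym is above its controls in every laser library on both days, and the groups of Dio2, Dio3 and Rxrg overlap on both days.

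In the other 5 genes no change passed the test. On day 3, 4 of the 5 were tested, and 0 passed the adjusted threshold, against 0.149% of all genes. On day 7, Crym was the 1 gene called among the 5 members tested, against 0.244% of all genes. In the comparison of the laser effects between days 0 of the 5 passed, where 0% of all genes passed, and 1 of the 5 (Thra) came under 0.05 without adjustment, as did 9.39% of all genes. By limma's moderated test without adjustment, 1 of the 4 (Thra) came under 0.05 on day 3, as did 23% of all genes, and on day 7 Crym alone did, as did 3.94% of all genes.

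Thra encodes the receptor found in most tissues. Its signal (ENSMUSG00000058756, chromosome 11, 98740638 to 98769006, plus strand) was 7.81, 8.14 and 5.43 in lasered retinas on day 3, against 3.81, 4.67 and 4.92 in control retinas. All laser values were above all control values, as they were for 27.7% of all genes tested that day. The log2 fold change was 0.56 (SE 0.19, adjusted p = 0.147), and over 15 alternatives it lay between 0.31 (quantile normalization) and 0.72 (without laser library 3), with adjusted p between 0.099 and 0.401. On day 7 the signal was 327, 196 and 318 in lasered retinas, against 329.5, 272 and 282 in control retinas, with overlapping groups and a log2 fold change of -0.10 (SE 0.22, adjusted p = 1) that was 0.13 without laser library 2. The difference of the laser effects between the days, -0.66 (SE 0.30, adjusted p = 0.531), did not pass.

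Thrb encodes the receptor that cones use. Its signal (ENSMUSG00000021779, chromosome 14, 17660261 to 18038090, plus strand) was 12.8, 20.4 and 16.8 in lasered retinas on day 3, against 30.4, 18.0 and 26.1 in control retinas. Laser libraries 1 and 3 were below every control, while laser library 2 was above control library 2. The log2 fold change of -0.54 (SE 0.24, adjusted p = 0.235) did not pass, and it was -0.37 without laser library 1. On day 7 the signal was 1.90, 6.24 and 2.99 in lasered retinas, against 2.58, 3.97 and 2.45 in control retinas (log2 fold change 0.15, SE 0.37, adjusted p = 1). The groups overlapped, the highest value of each was in the library numbered 2, and the sign turned to -0.21 without laser library 2.

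The libraries numbered 2 of day 7 differed from the others by base composition as a whole. Among 2386 tested genes with a GC content of 40 to 45%, the class of Thrb and Dio2, the median deviation from the control mean was 0.81 in laser library 2 and -0.31 and -0.09 in laser libraries 1 and 3, against 0.35 in control library 2 and -0.28 and -0.08 in control libraries 1 and 3. Among 3151 genes with 55 to 60%, the class of Thra and Dio3, it was -0.24 in laser library 2, and 0.11 and 0.08 in laser libraries 1 and 3, against -0.09 in control library 2 and 0.10 and -0.01 in control libraries 1 and 3. On day 3 the class with 55 to 60% stood at 0.47, 0.36 and 0.21 in the laser libraries, against -0.09, 0.04 and 0.04 in the controls. The class with 40 to 45% stood at 0.15, 0.05 and 0.13 in the laser libraries that day, against -0.03, -0.11 and 0.15 in the controls. The part of base composition in the values of Thra, Thrb, Dio2 and Dio3 was not tested.

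Rxrg, the retinoid X receptor gene found in cones, had laser values that overlapped with its controls on both days. Its signal (ENSMUSG00000015843, chromosome 1, 167598384 to 167639623, plus strand) was 5.68, 8.21 and 11.0 in lasered retinas on day 3, against 7.98, 10.5 and 10.3 in control retinas (log2 fold change -0.22, SE 0.24, adjusted p = 0.612). Laser library 1 was the lowest of the 6, and without it the log2 fold change was 0.00. On day 7 it was 19.5, 17.3 and 17.4 in lasered retinas, against 20.4, 19.0 and 19.9 in control retinas (log2 fold change -0.13, SE 0.15, adjusted p = 1). The groups overlapped on both days, on day 7 only through laser library 1.

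The activating deiodinase gene Dio2 was low and the inactivating deiodinase gene Dio3 lower still on day 3. Dio2 (ENSMUSG00000007682, chromosome 12, 90724552 to 90738438, minus strand) had a signal of 1.80, 2.48 and 2.37 in lasered retinas on day 3, against 2.58, 1.99 and 2.41 in control retinas (log2 fold change -0.05, SE 0.18, adjusted p = 0.894). The groups overlapped, and 50, 97 and 75 reads in lasered and 103, 78 and 70 reads in control retinas stand behind these values. On day 7 Dio2 was under the minimum mean of 1 and was not tested, with 0.466, 1.71 and 0.580 in lasered and 0.354, 1.02 and 0.976 in control retinas, again overlapping. These rest on 26, 79 and 36 reads in lasered and 19, 59 and 45 reads in control retinas.

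Dio3 (ENSMUSG00000075707, chromosome 12, 110279068 to 110281097, plus strand) had 9, 3 and 2 reads in lasered retinas on day 3, against 1, 3 and 2 reads in control retinas. That is a signal of 0.890, 0.210 and 0.181 in lasered and 0.0759, 0.230 and 0.196 in control retinas, too low for the test, and a difference between the groups was not detectable at this depth. On day 7 its signal was 2.52, 0.567 and 2.55 in lasered retinas, against 5.17, 2.04 and 2.20 in control retinas, from 46, 10 and 54 reads in lasered and 98, 41 and 35 reads in control retinas. Laser library 2 was the lowest and control library 1 the highest, the groups overlapped, and the log2 fold change of -0.54 (SE 0.43, adjusted p = 1) was -0.15 without laser library 2 and -0.21 without control library 1.

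Ordered by signal, which is scaled by gene length, the 6 genes had the same order of means in both groups on day 3. In lasered retinas Crym (494) was followed by Thrb (16.6), Rxrg (8.29), Thra (7.13), Dio2 (2.22) and Dio3 (0.427), with Rxrg and Thra overlapping. In control retinas the order was Crym (57.4), Thrb (24.8), Rxrg (9.59), Thra (4.47), Dio2 (2.33) and Dio3 (0.167), and no neighbours overlapped. On day 7 Thra stood highest, at 280.3 in lasered retinas, where it overlapped with Crym (216.7), and at 295 in control retinas, above Crym (90.1). Rxrg came next with 18.0 in lasered and 19.8 in control retinas. Thrb (3.71), Dio3 (1.88) and Dio2 (0.919) followed in lasered retinas with each neighbour overlapping, and in control retinas Dio3 (3.14) overlapped with Thrb (3.00), which was above Dio2 (0.784).

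The ratio of the 2 receptor genes, Thra over Thrb within a library, was set beside these levels. It was 0.612, 0.400 and 0.323 in lasered retinas on day 3, against 0.126, 0.260 and 0.188 in control retinas, without overlap, and 172, 31.4 and 106 in lasered retinas on day 7, against 128, 68.6 and 115 in control retinas, with overlap. The ratio was under 1 in all 6 libraries of day 3 and over 1 in all 6 of day 7, in lasered and control retinas alike. Each day has its own table, and day and table cannot be told apart. The gap between the tables moved with GC content, as given below, which is 59.8% for Thra and 44.1% for Thrb. Within day 3, too, the GC classes of Thra and Thrb deviated unequally in the laser libraries, as given above. How many other gene pairs have ratios without overlap was not counted. The part of base composition in this ratio and in the order of the 6 genes was not tested.

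Among the 6 genes, the controls of the 2 tables differed most for Thra. Its mean log2(signal + 1) in control retinas was 5.76 higher on day 7 than on day 3, and 118 of 17611 genes had a larger gap, while Thrb was at -2.68, Dio2 at -0.92, Dio3 at 1.75, Rxrg at 0.98 and Crym at 0.64. The median gap of all genes was 0.43, and it moved with GC content, at -2.02 for genes with 35 to 40% and 3.43 for genes with 60 to 65%. Thra has a GC content of 59.8%, and genes within 2 points of it had a median gap of 2.98 with 5.57 as the 95th percentile. Thrb, with 44.1%, was set against a median of -0.75 and a 5th percentile of -3.03. Differences between days are therefore compared here as laser effects within a day.

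**Figure D2:**
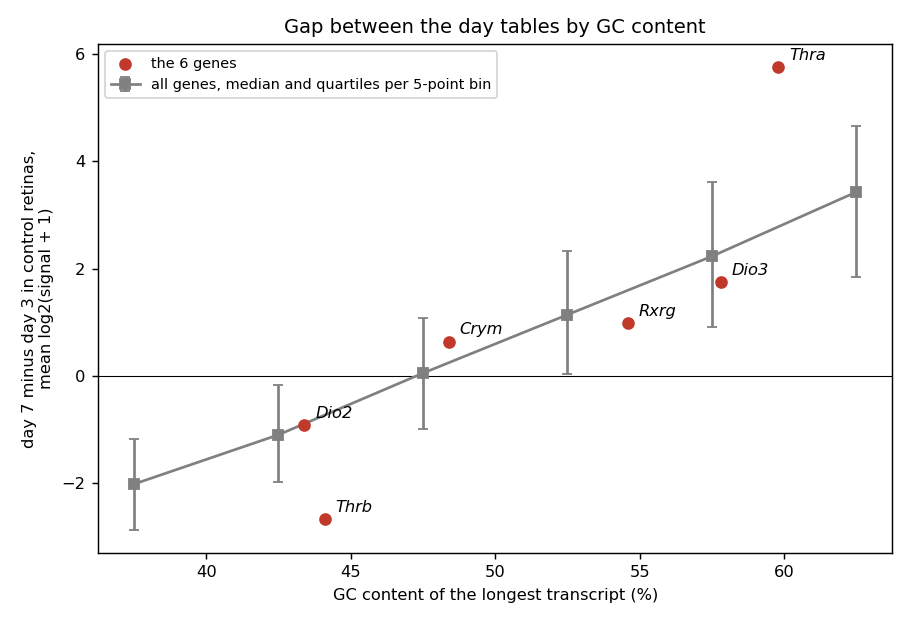
Difference between the day 7 and day 3 tables in control retinas (mean log2(signal + 1), day 7 minus day 3, n = 3 each) against the GC content of the longest transcript, with the 6 genes as points and the median and quartiles of all genes per 5-point class in grey. The grey medians climb with GC content, and Thra, at 5.76, lies above the upper quartile of its neighbours.

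Some of these values may share reads with neighbours that cannot be assigned here, since the labels do not state whether counting used strand. Thra overlaps Nr1d1, the clock gene on the opposite strand, over 1075 bases, of which 263 are in exons of both. Nr1d1 was at 87.5, 128 and 112 in lasered retinas on day 3, against 116, 148 and 105 in control retinas, and at 344, 314 and 290.2 in lasered retinas on day 7, against 363, 319 and 296 in control retinas, with overlapping groups on both days. Dio2 shares 100 exon bases with Gm26512, which was at or below 0.680 in all 12 libraries. Thrb overlaps Gm24140, Gm48320 and Gm48321 on the opposite strand with 0 shared exon bases.

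Genes around the 6 were read from lists of transport and binding, metabolism, partners with coregulators, response genes, and lysine degradation through pipecolate. These lists were written with earlier results of these data known. Of 48 genes in the 5 lists, 40 were tested on day 3 and 41 on day 7, and 0 passed the adjusted threshold on either day by limma. Under an unadjusted p of 0.05 came 3 on day 3, against 23% of all genes, and 1 on day 7, against 3.94%. The median log2 fold change was 0.08 on day 3, against 0.16 for all genes tested, and 0.08 on day 7, against 0.06 for all genes tested. The groups did not overlap for 22.5% of the tested list genes on day 3, against 31.6% of all genes, and for 12.2% on day 7, against 8.89% of all genes. In the difference of the laser effects between the days 0 of 43 passed, where 0% of all genes did. An unadjusted p under 0.05 was found for 0 of them, against 9.39% of all genes.

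Transport and binding genes went both ways. Slc7a8, an amino acid transporter that also moves thyroid hormone, was at 31.0, 25.5 and 21.2 in lasered retinas on day 3, against 13.4, 15.5 and 16.4 in control retinas, and at 75.6, 59.4 and 82.2 on day 7, against 50.7, 52.5 and 57.5 in controls. The groups did not overlap on either day, and the log2 fold changes were 0.73 (SE 0.17, adjusted p = 0.0950) on day 3 and 0.42 (SE 0.16, adjusted p = 1) on day 7. In the joint fit of 12 libraries Slc7a8 passed on day 3, where that fit called 1139 of 16786 genes, against 25 in the main fit.

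Slco1c1, the gene of a thyroxine transporter of the blood-brain barrier, stood below its controls in every laser library on day 3, at 0.780, 3.59 and 4.01 in lasered retinas, against 4.42, 4.39 and 4.22 in control retinas (log2 fold change -0.63, adjusted p = 0.358). Ttr, which encodes the carrier protein transthyretin, spread widely, at 38.1, 148 and 498 in lasered retinas on day 3, against 236, 354 and 316 in controls (log2 fold change -1.06, adjusted p = 0.461). The pigment epithelium markers, a list that includes Rpe65, summed to 50.4, 121 and 305 in the same laser libraries, against 189, 292 and 247 in controls, and deviated from the controls by -1.66, -0.99 and 0.25, in the same order as Ttr, and their part in its value was not tested. Serpina7, the gene of thyroxine-binding globulin, is listed at 0 in all 12 libraries.

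Among the metabolism genes, Secisbp2, needed to insert selenocysteine into deiodinases, was at 12.8, 13.3 and 9.86 in lasered retinas on day 3, against 5.61, 8.60 and 8.50 in control retinas (log2 fold change 0.61, adjusted p = 0.145). The groups did not overlap on day 3 and overlapped on day 7. Dio1, the deiodinase gene of liver and thyroid, was at or below 0.650 in all 12 libraries and was not tested. Of the partners and coregulators, 0 of 14 passed on day 3 and 0 of 15 on day 7, with a median of 0.08 on both days. Rxra and Rxrb, the other retinoid X receptor genes, had log2 fold changes of 0.05 and 0.13 on day 3 and 0.01 and -0.23 on day 7.

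The response list holds genes that thyroid hormone regulates in other tissues. Klf9, a direct target of the receptors in brain, was at 33.7, 31.1 and 26.4 in lasered retinas on day 3, against 28.2, 23.8 and 29.6 in control retinas, and its log2 fold changes of 0.15 on day 3 and -0.12 on day 7 did not pass. Hr, the gene of the corepressor hairless, was too low for the test on day 3 and on day 7 was at 72.2, 42.2 and 68.8 in lasered retinas, against 67.8, 51.9 and 56.7 in controls (log2 fold change 0.02). Me1, the malic enzyme gene, was at 14.6, 13.2 and 11.3 in lasered retinas on day 3, against 9.02, 9.18 and 8.77 in control retinas, without overlap (log2 fold change 0.48, adjusted p = 0.123). Over the list, 5 of 8 tested genes had a log2 fold change above 0 on day 3, against 68.2% of all genes, and 5 of 10 on day 7, against 61.5% of all genes.

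The cone opsin genes, which the Thrb product and Rxrg regulate, were lower in the lasered retinas of day 3, mostly in laser library 1, without passing the test. Opn1sw was at 73.3, 644 and 652 in lasered retinas, against 974, 1070 and 986 in control retinas (log2 fold change -1.68, SE 0.78, adjusted p = 0.249). Opn1mw was at 49.9, 357 and 357 in lasered retinas, against 675, 428 and 576 in control retinas (-1.56, SE 0.72, adjusted p = 0.248). Over 12 cone markers, 11 were below 0 with a median of -0.43 and 0 passed, while 68.2% of all genes tested were above 0. The list deviated by -1.56, -0.20 and -0.28 in the laser libraries. In bulk retina, fewer cones and less RNA per cone cannot be told apart. On day 7 the log2 fold changes were 0.10 for Opn1sw and -0.01 for Opn1mw.

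The lysine route, in which mu-crystallin is an enzyme, showed 0 of 5 tested genes past the threshold on either day, with medians of 0.17 on day 3 and 0.26 on day 7. Aldh7a1, the dehydrogenase that follows the pipecolate branch, was at 18.3, 21.9 and 22.9 in lasered retinas on day 3, against 18.0, 18.2 and 16.3 in control retinas. On day 7 it was at 57.0, 63.0 and 63.4 in lasered retinas, against 47.9, 51.7 and 53.1 in controls. The groups did not overlap on either day, and the log2 fold changes of 0.25 (adjusted p = 0.330) and 0.26 (adjusted p = 1) did not pass. Aass, the entry enzyme of the saccharopine branch, had log2 fold changes of -0.30 on day 3 and 0.26 on day 7.

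**Figure D3:**
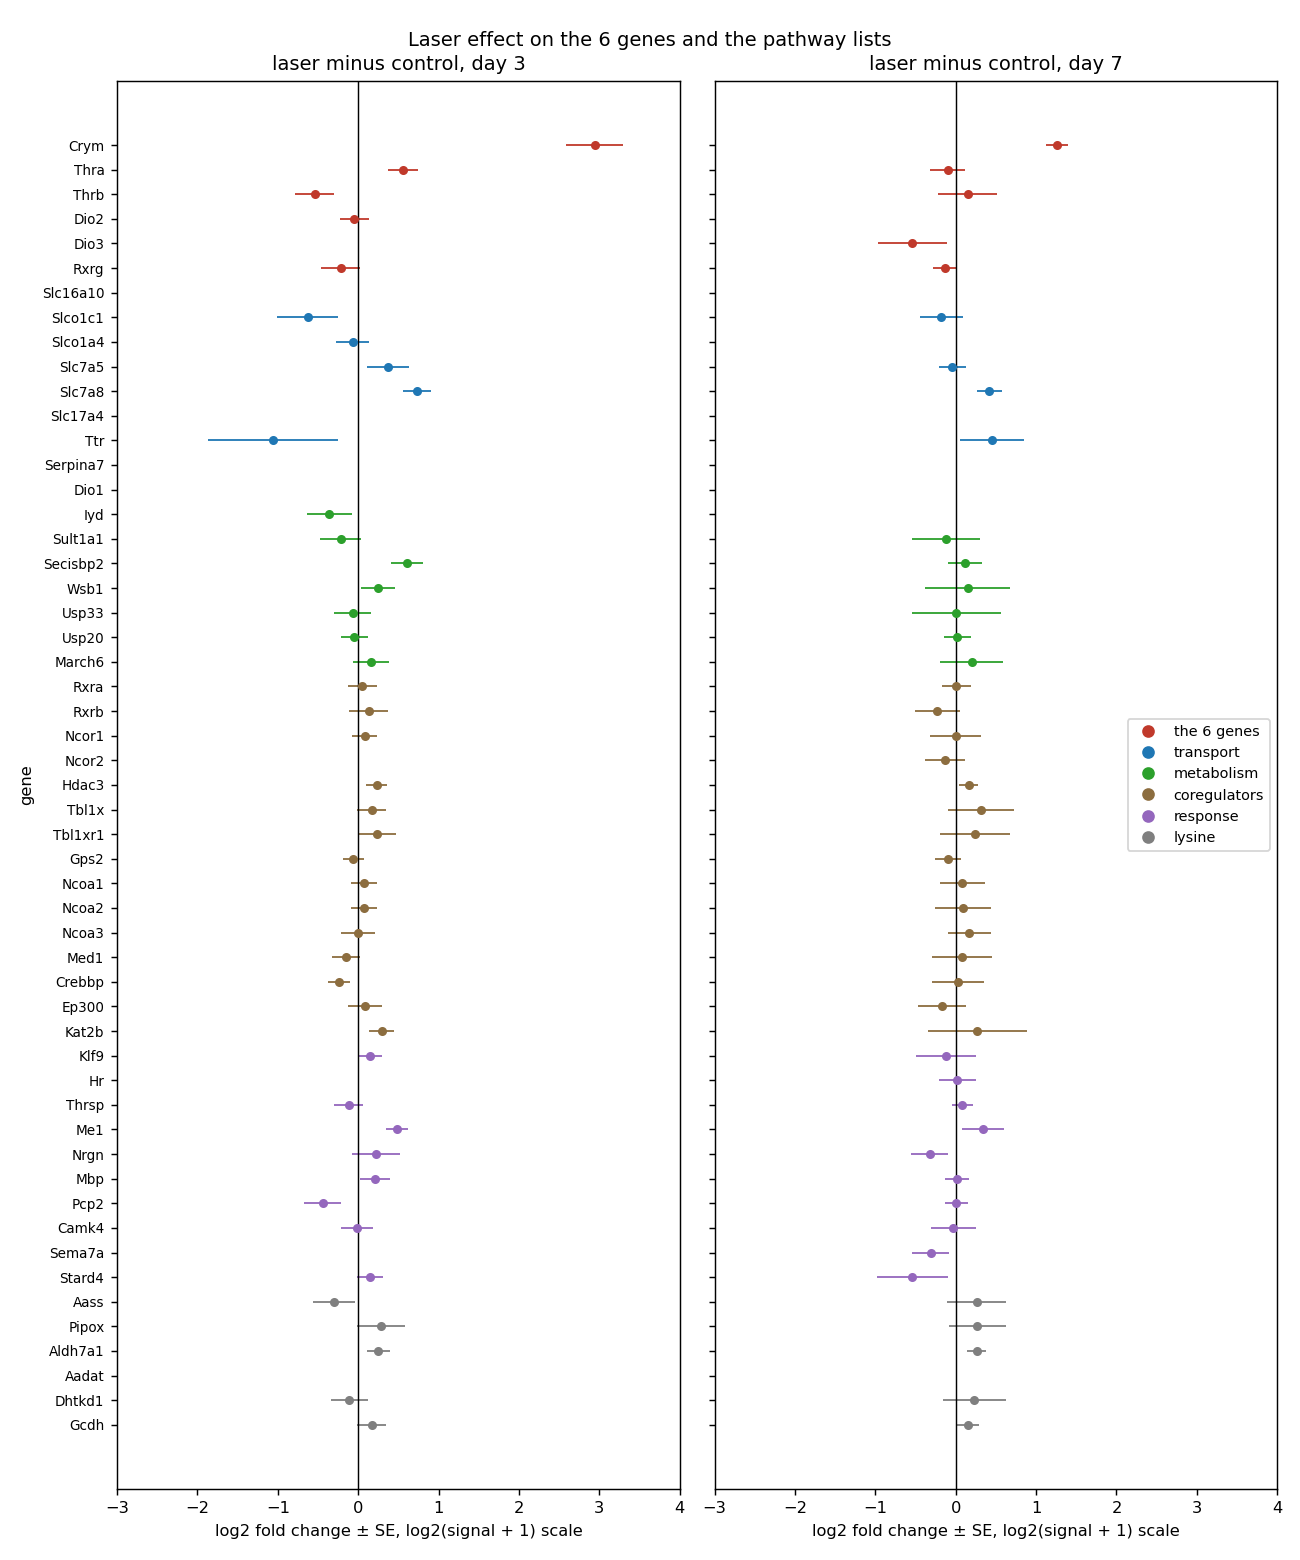
Log2 fold change of laser over control (point) with its standard error (line) for the 6 genes and genes of the 5 lists, day 3 left and day 7 right, on the log2(signal + 1) scale. Genes without a point were too low to be tested. Crym, at 2.94 and 1.26, lies apart from the other genes drawn, and Ttr has the widest line among the list genes drawn for day 3.

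Most marker genes of reactive glia and phagocytes stood above their controls in the lasered retinas of both days, and few of them passed the test on day 3. The marker lists, those of cones and lens included, were written with earlier results of these data known. Their counts, set beside the shares of all genes, are therefore a description. In mouse retina Crym transcripts are known from Müller glia, the radial glia that span the tissue. Of 9 tested reactive glia markers, 2 rose on day 3 (Gfap and Edn2), where 0.149% of all genes were called. All 9 had laser values above control values, as did 27.7% of all genes, and the median log2 fold change was 2.49. Their mean deviation from the controls was 5.02, 2.18 and 2.69 in laser libraries 1, 2 and 3, beside 3.83, 2.40 and 2.61 for Crym. The summed signal of the list was 6219, 324 and 581 in these laser libraries, against 56.9, 62.0 and 61.7 in controls, and 0 of its markers were listed at 0 throughout. On day 7, 4 of 9 rose, where 0.244% of all genes were called. The deviations were 1.63, 1.92 and 1.73 beside 1.37, 1.17 and 1.26 for Crym. The sums were 605, 597 and 629 in lasered against 121, 129.9 and 76.4 in control retinas. The order of the laser libraries was that of Crym on day 3. On day 7 Crym was highest in laser library 1, where the mean deviation of these markers was lowest, while their sum was lowest in laser library 2. Single markers differed that day, with Gfap highest in laser library 1, Serpina3n in laser library 2 and Edn2 in laser library 3.

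The general Müller glia markers had smaller medians. Of 12 markers 0 rose on day 3, where 0.149% of all genes were called. On day 7, where 0.244% were called, 1 rose, Clu (log2 fold change 1.18, adjusted p = 0.0444 by limma). The medians were 0.46 on day 3 and 0.48 on day 7. On day 3, 7 of the 12 were above 0, against 68.2% of all genes, and 6 had an unadjusted p under 0.05 by limma, against 23%. On day 7, 12 of 12 were above 0, against 61.5% of all genes, and 5 had an unadjusted p under 0.05, against 3.94%. Vim, the vimentin gene, was at 157, 49.2 and 44.1 in lasered retinas on day 3, against 6.79, 13.1 and 8.45 in control retinas (log2 fold change 2.81, adjusted p = 0.0883), and the log2 fold changes of Clu and Apoe were 1.17 and 1.16. Glul, the glutamine synthetase gene, was at 67.2, 285 and 238 in lasered retinas that day, against 317, 318 and 310.2 in control retinas, all laser values below the controls, while on day 7 all were above them. Microglia and macrophage markers deviated by 2.59, 1.51 and 1.67 on day 3, where 1 of 9 rose, against 0.149% of all genes called. They deviated by 1.61, 1.71 and 1.83 on day 7, where 6 of 9 rose, against 0.244% of all genes called. Their sums were 955, 171 and 226 in lasered against 37.0, 42.6 and 40.4 in control retinas on day 3, and 470.1, 426 and 507 in lasered against 121, 114 and 98.7 in control retinas on day 7. These day 7 deviations, too, were lowest in laser library 1, while the sums were lowest in laser library 2. The marker calls depended on single libraries: 0 of the reactive glia, Müller glia and microglia markers passed on day 3 without laser library 3 or without any 1 of the control libraries, and 0 on day 7 without laser library 3 or control library 3. Without laser library 1 of day 3, 9 reactive glia, 3 Müller glia and 6 microglia markers passed that day. The part of glial or phagocyte RNA in the Crym values was not tested.

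Lens markers had log2 fold changes above 0, with 1 laser library far above the others on each day. On day 3, 8 of 8 tested had a log2 fold change above 0 (median 2.08), against 68.2% of all genes. On day 7, 11 of 11 did (median 1.59), against 61.5%. By limma 0 passed on either day. Under an unadjusted p of 0.05 came 2 on day 3, against 23% of all genes, and 1 on day 7, against 3.94%. The mean deviations in laser libraries 1, 2 and 3 were 0.87, 4.51 and 0.31 on day 3 and 4.96, -0.02 and 0.07 on day 7. Crybb3, a beta-crystallin gene, was at 14.8, 17.0 and 3.71 in lasered retinas on day 3, against 1.56, 1.68 and 1.50 in control retinas, without overlap (log2 fold change 2.10, adjusted p = 0.0938). The summed signal of 11 lens markers was 25.2, 495 and 9.19 in the laser libraries of day 3, against 3.87, 7.47 and 3.90 in controls, all 3 laser libraries above all controls. Crym was highest in the laser library with 25.2 and, of the 3 laser libraries, lowest in that with 495. On day 7 the lens sum was 1372, 9.08 and 10.1 in the laser libraries, against 11.7, 6.15 and 7.83 in controls. Crym was highest in the library at 1372, and without it the Crym log2 fold change was 1.21. The part of lens RNA in the Crym values was not tested. Rod markers deviated by -1.08, 0.07 and -0.26 in the laser libraries of day 3. Oligodendrocyte markers summed to at most 2.60 in every library.

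**Figure D4:**
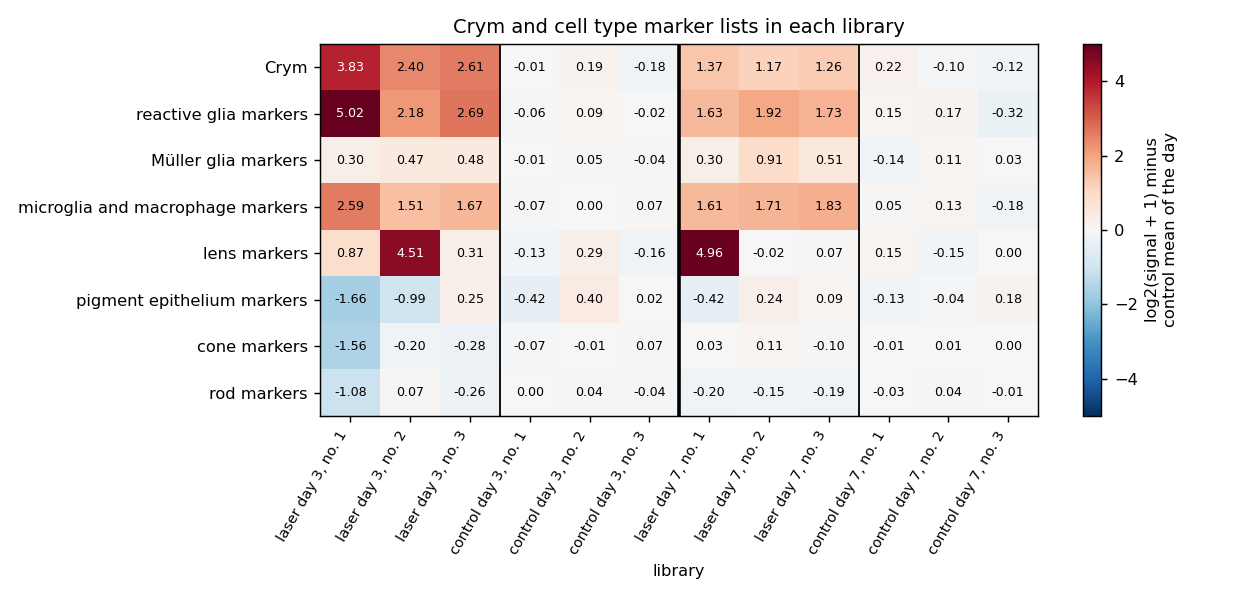
Mean difference from the control mean of the same day, on the log2(signal + 1) scale, for Crym and 7 marker lists (rows) in each of the 12 libraries (columns, laser left of control within a day, with numbers printed in the cells). Crym and the reactive glia markers are both highest in laser library 1 of day 3, and the lens markers stand out in laser library 2 of day 3 and laser library 1 of day 7.

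The genes whose profile was most like that of Crym were found by the root mean square difference of the 12 deviations from the control mean of the day, over 10735 named genes with a mean of at least 1 in both tables. They were Gadd45b, a stress-induced gene (0.16), Upp1, uridine phosphorylase (0.23), Cd68, a lysosomal protein of macrophages (0.24), Clec2d, a C-type lectin (0.28), and Glipr2 (0.30). Gadd45b was at 26.5, 9.46 and 10.5 in lasered retinas on day 3, against 0.970, 1.17 and 0.501 in control retinas, and at 55.5, 41.4 and 57.5 on day 7, against 27.9, 25.6 and 20.7 in controls. All 5 had their highest day 3 value in laser library 1, with log2 fold changes of 2.74 to 3.01 that day, and of 0.98 to 1.62 later, on day 7. The day 3 controls of Gadd45b, Upp1, Clec2d and Glipr2 were at or below 1.19, where the log2(signal + 1) scale understates a change. Their likeness to Crym in size holds on that scale only. Upp1 reached the minimum mean on day 7 through its laser libraries (2.10, 1.91 and 3.26, against 0.918, 0.325 and 0.559 in controls). These 12 libraries share the contrast for which Crym was chosen, so the likeness is a description.

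**Figure D5:**
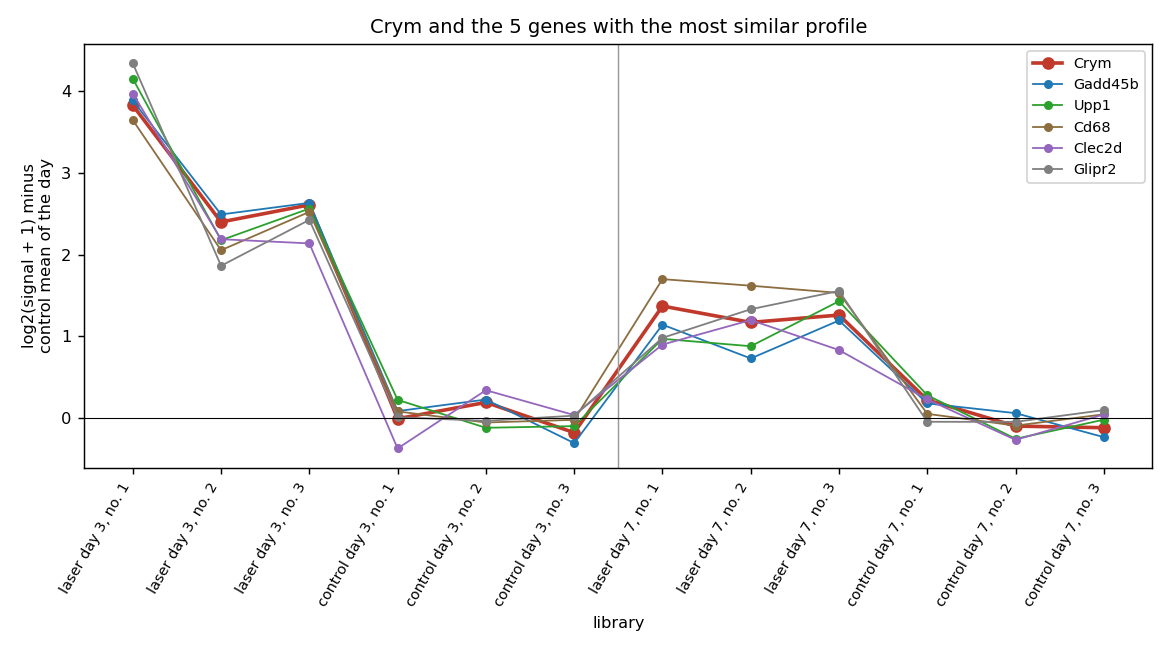
Difference from the control mean of the same day, on the log2(signal + 1) scale, for Crym (thick red) and the 5 genes with the smallest root mean square difference from it, in the 12 libraries with day 3 left of the grey line. Lines join the points of a gene to show its profile, and all 6 genes are highest in laser library 1 of day 3.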

How the data were processed

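Per the labels' protocols, poly(A) RNA of retina was sequenced with a directional kit. The submitters' processing notes name STAR 2.7.0, edgeR 3.28.0 and mm10, with no role for any of them; which tool counted the reads and whether it used strand was not stated in the sources read. Each day has its own table of a deposited signal for every gene, which the authors named TPM. Column sums between 953049 and 1045986 and a factor cycling with row position show that it is not strict TPM, the unit assumed when the tests were chosen. Times exon length (GENCODE M21, where start and end were equal for 53681 of 54367 genes), at least 99.75% of values under 20 reads per library were whole multiples of a step within 0.05, which gave reads. A count of 3 reads per kb is a signal of 0.291 to 0.605, covering counting error only. In all, 0 columns had no sample.

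Limma 3.58.1 (R 4.3.3, trended prior, 2-sided) was run per day on log2(signal + 1), which understates the change of low genes, keeping genes whose mean over the day reached 1. Adjustment was by Benjamini-Hochberg across the tested genes, at 0.05. The laser effect of day 7 minus that of day 3 was an interaction over 12 libraries. The fits were also run on simulated data with noise drawn independently for each gene and large changes added. These data held no shift of a whole library, so they do not test the fits against such shifts. Groups came from sample titles. Alternatives were a pseudocount of 0.1, no filter or a mean of at least 5, median-of-ratios and quantile scaling, library weights, a replicate block, a joint fit, leaving out each library, and, added after seeing the data, undoing the cyclic factor. Equal-numbered libraries deviated together on day 7, with correlations of 0.485, 0.559 and 0.128, though laser library 3 correlated more with control library 1, at 0.205. The labels do not say that equal numbers pair the samples, and the main fits did not pair them. The libraries numbered 2 of that day also shared a shift by base composition, whose part in these correlations was not tested.

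The members and the 14 lists (139 genes) were chosen with earlier results of these data known. Genes named are the members, genes overlapping them, the 5 most like Crym, and for each list those with the smallest p or the closest function. A gene that this choice names is not reported here. Tables and figures were made in Python 3.11.15 with matplotlib 3.10.9, NumPy 2.4.6 and pandas 2.3.3. Coordinates are counted from 1 on mm10.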

Additional observations from a re-analysis of the deposited data

Results flagged for a closer look

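Dio3 was marked because its laser effect had opposite signs on the 2 days. Every laser library was above the control mean of log2(signal + 1) on day 3 and below it on day 7, and the day 7 effect minus the day 3 effect was -0.79 (SE 0.51). The test of that difference did not pass (adjusted p = 0.691 by limma), the day 3 values rest on 9 reads or fewer per library, and the groups overlapped on both days.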

How the results depend on the processing

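Of 485 values recomputed under 21 alternatives, 404 kept their direction and side of the threshold (counts: within 1.5 times), 12 that did not pass turned sign, 8 no longer passed, 61 moved, mostly counts of marker genes, and 0 of the called values turned sign. Crym on day 7 had a log2 fold change of 1.26 without a filter, 1.16 after median-of-ratios rescaling and 1.26 in the joint fit, and between 1.20 and 1.38 with a library left out. Members called on day 7 numbered 0 in the first 3 of these and between 0 and 1 with a library left out, against 1. List genes called on day 3 numbered 1 in the joint fit, against 0. Genes called over the whole table ranged widely, between 0 (no filter, replicate block, or any control library left out) and 1139 (joint fit) on day 3, against 25, and between 0 (laser library 3 or control library 3 left out) and 114 (library weights) on day 7, against 38. The cause was not tested.

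With the replicate block, Crym on day 7 had an adjusted p of 0.0208 and 53 genes were called. On day 3 equal-numbered libraries did not deviate together (correlations 0.0413, 0.0162 and 0.0766). With the block 0 members and 0 genes were called that day, and the Crym log2 fold change was 2.94. On day 3 the block ended the calls of Gfap, Edn2 and C1qb. It changed no other call among the members, the 5 pathway lists and the glial, microglia and lens markers. Signs of changes that did not pass turned for Dio2 (up to 0.05) on day 3, for Thra (up to 0.13) and Thrb (down to -0.21) on day 7, and between the days for Dio2 (down to -0.30, against 0.12) and Rxrg (down to -0.13, against 0.09), with a library left out or with library weights. Dio3 rests on 9 reads or fewer per library on day 3, where depth limits what can be detected.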
